A study of Homo sapiens with 3 samples.

Results

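NADPH oxidases are membrane enzymes that pass electrons from NADPH across a membrane to oxygen and so make superoxide or hydrogen peroxide. In phagocytes the catalytic subunit CYBB (gp91phox, also called NOX2) pairs with CYBA (p22phox) to form flavocytochrome b558, and cytosolic subunits, among them NCF1 and NCF4, join it together with a RAC GTPase when the cell is activated. B lymphocytes also carry this oxidase, at lower levels than neutrophils. NOX1, NOX3 and NOX4 are relatives of CYBB that also need CYBA, whereas NOX5, DUOX1 and DUOX2 bind calcium and work without it. The 9 genes CYBA, CYBB, NCF4, NOX1, NOX3, NOX4, NOX5, DUOX1 and DUOX2 were followed here through every probe set that the array's annotation gives to one of them alone. These were 21 of 54675 probe sets, and the 9 genes were among 19775 genes with a probe set of their own. No probe set was assigned to one of the 9 together with another gene.

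The arrays compared SupB15, a drug-sensitive B-cell precursor leukemia line (1 array), with the multidrug-resistant cells SupB15-MR derived from it (2 arrays), all grown in RPMI1640 with 10% serum and no drug. In the study's account, SupB15-MR cells outlived mitoxantrone in medium conditioned by the human marrow stromal line HS-5 and were then kept without drug for months. The labels call the SupB15-MR arrays biological replicates, and the description of the second names MR5. The study's figure legends speak of 2 SupB15-MR clones, 1 of which the supplement names MR5. Nothing says whether these clones came from separate selections. SupB15 had 1 array, so no spread between parental cultures was measured.

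The 2 partners of flavocytochrome b558 went opposite ways, as set out below, and the sequences before their transcription starts are shown for that reason. The windows are the 250 bases before the start in RefSeq (GRCh38.p14), written 5′ to 3′ on the gene's strand: chrX:37779809-37780058 on the plus strand for CYBB and chr16:88651054-88651303 on the minus strand for CYBA. Capitals mark matches, on either strand, to GAGGAA (the PU box, bound by the myeloid and B-cell factor SPI1), CCAAT (the CCAAT box), GGGCGG (the GC box) and a pair of interferon regulatory factor half-sites (GAAA, any 2 bases, GAAA).
CYBB: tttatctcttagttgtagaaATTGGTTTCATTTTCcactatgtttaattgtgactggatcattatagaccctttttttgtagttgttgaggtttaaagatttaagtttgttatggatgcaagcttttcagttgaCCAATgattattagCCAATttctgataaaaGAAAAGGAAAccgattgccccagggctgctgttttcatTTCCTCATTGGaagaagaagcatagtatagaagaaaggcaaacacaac
CYBA: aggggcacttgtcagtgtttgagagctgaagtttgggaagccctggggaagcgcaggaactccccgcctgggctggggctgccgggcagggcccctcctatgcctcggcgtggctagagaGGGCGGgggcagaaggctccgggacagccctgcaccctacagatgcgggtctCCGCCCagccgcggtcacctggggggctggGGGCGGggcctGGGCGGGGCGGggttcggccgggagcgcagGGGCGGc

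The CYBB window was 34.0% G and C. It held 1 PU box, which began 48 bases before the start on the opposite strand and ended directly before a reversed CCAAT box that began 42 bases before it. Its other CCAAT boxes began 230, 116 and 102 bases before the start, and its interferon regulatory factor pairs began 225 and 86 bases before it, the first of them directly after the CCAAT box at 230. The CYBA window was 73.6% G and C and held 6 GC boxes, 2 of which overlap by 1 base, and no match to the other 3 motifs. Of 35116 windows of this length in the table, 23.6% held a PU box, 32.0% a CCAAT box, 42.6% a GC box and 3.02% an interferon regulatory factor pair. The arrays did not measure binding to these windows, and a match is a description of the letters only. Windows were found for 8 of the 9 genes, all but NCF4. PU boxes also lay in windows of NOX3, NOX4 and NOX5, which had no probe set 2-fold apart. A window of NOX4 also held CCAAT boxes, and another a GC box. The DUOX1 window, 72.8% G and C, held GC boxes as that of CYBA did, although DUOX1 had probe sets 2-fold higher. The motifs thus did not sort the members by direction.

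Before the results, 3 properties of the deposited values touch them. The array medians were 5.08 for SupB15 and 5.27 for both SupB15-MR arrays, so that centring the arrays lowers each log2 difference given here by 0.19. Both SupB15-MR arrays held exactly the same value for 42.8% of 54613 probe sets that are not controls, and all 3 arrays did for 13.7%. In addition, 25.3% of the values in SupB15 and 48.4% and 47.7% of those in SupB15-MR were shared, to the last digit deposited, by at least 10 probe sets of the same array. The most frequent value, 3.01, stood for 381, 691 and 668 probe sets. The 20th percentile of all values, 3.47 on the log2 scale, is used below as the level near background, and probe sets at or below it in all 3 arrays were not tested. Controls for 18S ribosomal RNA were 6.63 to 7.82 higher in SupB15-MR, and those for 28S ribosomal RNA had differences from -0.90 to 4.63. The controls of GAPDH had differences of -1.18 to -1.81 and those of ACTB of -1.69 to 0.01. Their part in the results was not tested.

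Of the 21 probe sets, 16 were tested with limma. Calls needed a fold of 2 or more and an adjusted p (Benjamini-Hochberg) no higher than 0.05. By this rule 2 were called higher in SupB15-MR (1 of CYBB and 1 of DUOX1) and 2 lower (1 of CYBA and 1 of NCF4). The called probe set of DUOX1 was near background in SupB15 and was tested only because of its SupB15-MR values, as were 3 other member probe sets (1 each of CYBB, NOX3 and NOX5). Over the whole array 13.0% of 45987 tested probe sets were called higher and 9.70% lower, so these counts are near the background. Centring each array on its median lowered the share of higher among all calls from 57.3% to 46.0% and left the members' counts within 1.5 times. The spread came from the SupB15-MR arrays alone, on 1 residual degree of freedom, and the many identical values gave limma a prior SD of only 0.00102 (0.313 prior degrees of freedom). As a result a probe set with identical SupB15-MR values has a very small standard error so that its adjusted p alone does not speak for a change, while large differences between arrays that do vary can miss the threshold. With the prior taken from probe sets whose SupB15-MR values differ (SD 0.169), 6 member probe sets were called higher and 3 lower, against 19.5% and 16.2% of the whole array. An exact test of 1 array against 2 has 3 splits and cannot give a p under 0.333.

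Without any test, 6 of the 21 probe sets were at least 2-fold higher in both SupB15-MR arrays (4 of CYBB and 2 of DUOX1) and 3 were at least 2-fold lower (2 of NCF4 and 1 of CYBA). In SupB15, 1 of the 4 of CYBB and 1 of the 2 of DUOX1 were near background. Over all 54613 probe sets the shares were 15.4% and 12.7%. The median difference of the 21 was 0.00 on the log2 scale, as was that of all probe sets. NOX1, NOX3, NOX4, NOX5 and DUOX2 had no probe set 2-fold apart.

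**Figure D1:**
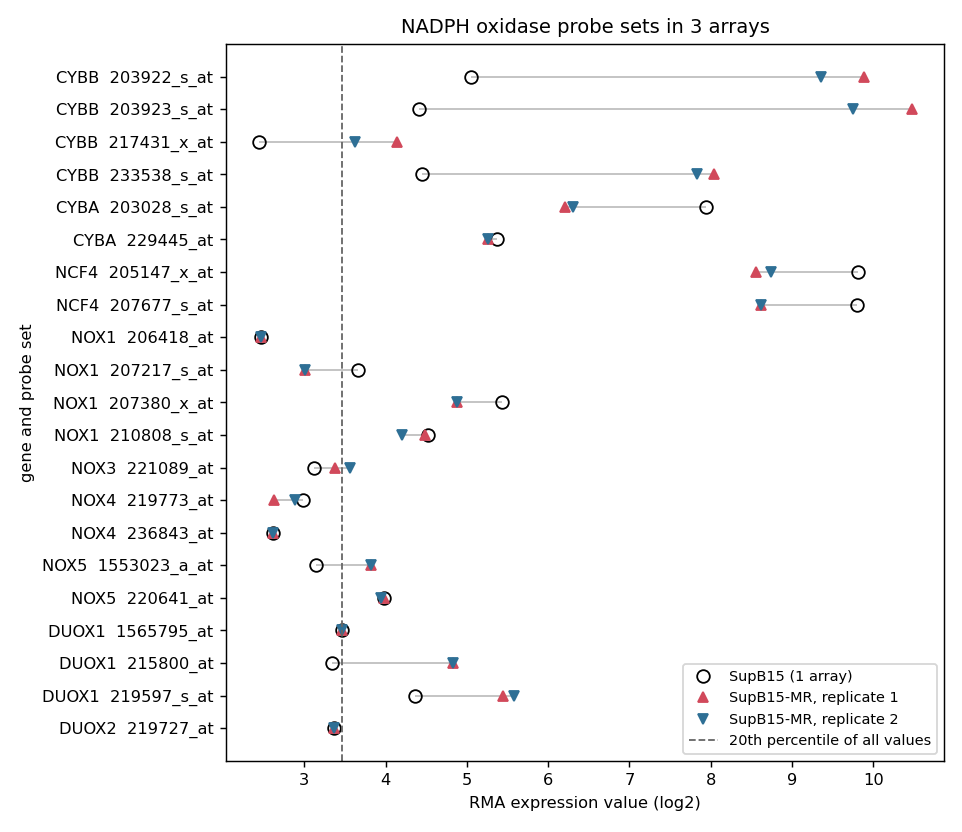
RMA expression value (log2, horizontal axis) of each of the 21 probe sets in the SupB15 array (circle) and the SupB15-MR arrays (triangles), with the 20th percentile of all values as a dashed line. The 4 CYBB probe sets lie higher in both SupB15-MR arrays than in SupB15, and the NCF4 probe sets lie lower in both.

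CYBB was the member with the largest difference. Probe set 203923_s_at stood at 4.40 on the log2 scale in SupB15, against 10.5 and 9.75 in SupB15-MR. Both SupB15-MR values lay far above the parental one, and the gap between them (0.72) was small beside a mean difference of 5.71, which is 52.3-fold. This moved the probe set from percentile 37.2 of its array to percentiles 97.3 and 95.1. Of 19775 genes, each read on the probe set whose 3-array mean was highest, 37 had a larger difference. Probe set 203922_s_at had 5.05 in SupB15 and 9.89 and 9.36 in SupB15-MR, a mean difference of 4.58. Neither of these passed the limma threshold (adjusted p = 0.0582 with a standard error of 0.543 and adjusted p = 0.0539 with a standard error of 0.403). With the prior from differing probe sets both passed (limma adjusted p = 6.43e-13 and 4.02e-12), and over the 7 alternatives run the adjusted p went from 3.99e-13 to 0.169 for the first and from 2.51e-12 to 0.165 for the second.

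The other CYBB probe sets were higher too. Probe set 233538_s_at, with 4.45 in SupB15 and 8.04 and 7.83 in SupB15-MR, rose by 3.48 (standard error 0.156, limma adjusted p = 0.0276). Probe set 217431_x_at, whose suffix marks probes that may also bind other transcripts, had 2.44 in SupB15 and 4.13 and 3.62 in SupB15-MR, a mean difference of 1.44 (limma adjusted p = 0.167). Its SupB15 value was near background, and its value in the first SupB15-MR array was shared by 391 probe sets. It was tested only because of its SupB15-MR values, so its difference adds no support. The other 3 CYBB probe sets lay above 3.47 in every array and had differences from 3.48 to 5.71.
In the first SupB15-MR array each CYBB probe set had a higher value than in the second, by 0.21 to 0.72 on the log2 scale. For comparison, the absolute difference between the SupB15-MR arrays stayed under 0.49 for 95% of all probe sets.

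CYBA encodes the small membrane subunit that stabilises CYBB and that NOX1, NOX3 and NOX4 also require. Its probe set 203028_s_at had 7.95 in SupB15 and 6.20 and 6.31 in SupB15-MR. Both resistant arrays were lower, and the gene fell by 1.69 on the log2 scale (3.23-fold; standard error 0.0777, limma adjusted p = 0.0283). The other probe set of CYBA, 229445_at, was less intense at 5.38 in SupB15 and 5.26 in both SupB15-MR arrays, and its difference was -0.11. The value 5.26 stood for 258 and 139 probe sets of those arrays. The fall of CYBA thus rests on 1 of its 2 probe sets, and the mean over both was -0.90.

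NCF4 encodes p40phox, which binds a phosphoinositide of the phagosome membrane. Both of its probe sets lay at percentile 95.6 of the SupB15 array. Probe set 205147_x_at had 9.81 in SupB15 and 8.56 and 8.74 in SupB15-MR, a difference of -1.17 (standard error 0.134, limma adjusted p = 0.0700; adjusted p = 6.44e-05 with the prior from differing probe sets, and 4.62e-05 to 0.180 over the alternatives). Probe set 207677_s_at had 9.79 in SupB15 and 8.62 in both SupB15-MR arrays, a difference of -1.18 (limma adjusted p = 0.000639). These last values were identical in both resistant arrays, although no other probe set of either array shared them. The 2 probe sets of NCF4 gave nearly the same difference, about 2.24-fold and 2.26-fold lower, and the gene remained at percentiles 88.7 to 89.9 of the SupB15-MR arrays.

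**Figure D2:**
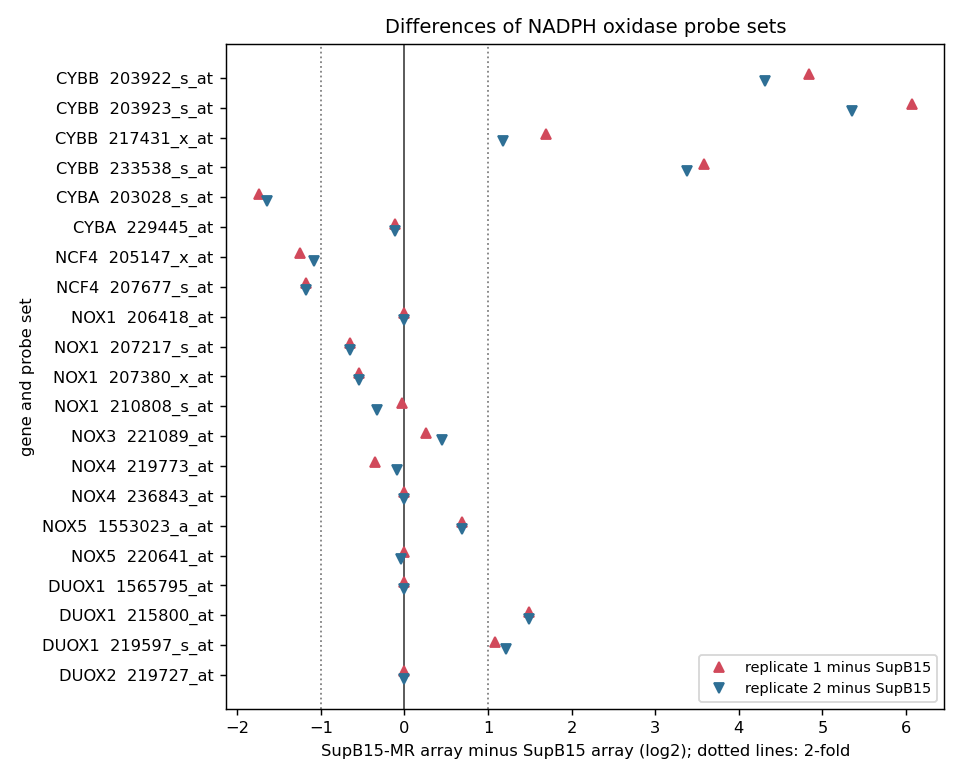
Difference between each SupB15-MR array and the SupB15 array (log2, horizontal axis) for the 21 probe sets, with dotted lines at 2-fold. CYBB (1.44 to 5.71 in the mean) and 2 probe sets of DUOX1 lie beyond the line on the higher side, and NCF4 and 1 probe set of CYBA lie beyond it on the lower side.

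DUOX1 and DUOX2 are dual oxidases, known from thyroid and airway, that carry a peroxidase-like domain outside the membrane. DUOX1 probe set 219597_s_at had 4.37 in SupB15 and 5.45 and 5.58 in SupB15-MR, a difference of 1.15 (standard error 0.100, limma adjusted p = 0.0535; adjusted p = 6.94e-05 with the prior from differing probe sets, and 4.98e-05 to 0.165 over the alternatives). Probe set 215800_at had 3.34 in SupB15, near background, and 4.83 in both SupB15-MR arrays, a rise of 1.49 (limma adjusted p = 0.000639) on a value shared by 110 and 197 probe sets of those arrays. The third, 1565795_at, had 3.47 in all 3 arrays, exactly at the 20th percentile. The SupB15-MR values of DUOX1 lay between percentiles 19.8 and 55.2 of their arrays. Centring the arrays on their medians took the difference of 219597_s_at to 0.96, under 2-fold. DUOX2, with 3.37 in all 3 arrays, was near background throughout.

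NOX1, a relative of CYBB known from colon epithelium, had 4 probe sets. Probe set 206418_at had 2.46 in all 3 arrays. Probe set 207217_s_at had 3.66 in SupB15 and 3.01 in both SupB15-MR arrays, the most frequent value there. Probe set 207380_x_at had 5.43 in SupB15 and 4.88 in both SupB15-MR arrays, and 210808_s_at had 4.52 in SupB15 and 4.49 and 4.20 in SupB15-MR. Their differences ran from -0.65 to 0.00, and none reached 2-fold.
NOX3, which is known from the inner ear, had 3.12 in SupB15 and 3.38 and 3.57 in SupB15-MR, a difference of 0.35 (limma adjusted p = 0.250). NOX4, a constitutively active form known from kidney, was near background on both probe sets: 219773_at had 2.98 in SupB15 and 2.62 and 2.89 in SupB15-MR, and 236843_at had 2.62 in all 3 arrays.
NOX5, which carries calcium-binding EF hands, had 3.98 in SupB15 and 3.98 and 3.94 in SupB15-MR on probe set 220641_at. Its other probe set, 1553023_a_at, had 3.14 in SupB15 and 3.82 in both SupB15-MR arrays, a difference of 0.68 on a value that 425 and 258 probe sets held. All 3 values lay at or below 3.47 for 5 of the 21 probe sets: both of NOX4, the only one of DUOX2, and 1 each of NOX1 and DUOX1. A further 5 lay at or below it in at least 1 array, and 11 lay above it in every array.

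**Figure D3:**
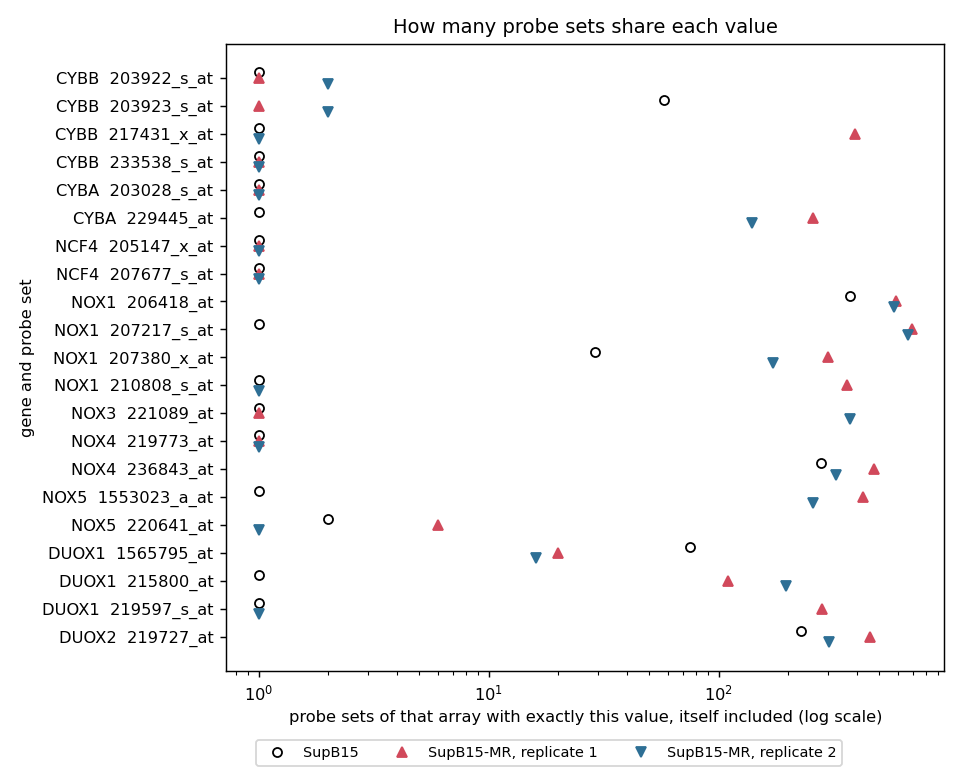
Number of probe sets of the same array that hold exactly the value of each of the 21 probe sets, itself included (horizontal axis, log scale), in the SupB15 array (circle) and the SupB15-MR arrays (triangles). Probe set 207217_s_at of NOX1 shares its value with 691 and 668 probe sets of the SupB15-MR arrays, whereas CYBB 233538_s_at, CYBA 203028_s_at and both of NCF4 stand at 1 in all 3 arrays.

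Of the members' 63 values, 28 were held by at least 10 probe sets of their array, and 14 of the 21 probe sets had such a value in at least 1 array. These shared values lay mainly in NOX1, NOX4, NOX5 and the DUOX genes. The larger differences of CYBB, CYBA and NCF4 came mostly from values that few or no other probe sets held, except for CYBB, where 58 probe sets shared the SupB15 value of 203923_s_at and 391 the first SupB15-MR value of 217431_x_at.

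The partners of CYBB in the phagocyte oxidase that follow had differences below 0 on their most intense probe sets, as did CYBA and NCF4. Over all genes, read in the same way, 7974 of 19775 had a mean difference below 0.00, so a negative sign alone is common. NCF1 (p47phox), the organiser that brings the cytosolic subunits to the membrane, had 6.68 in SupB15 and 5.92 and 5.68 in SupB15-MR on the probe set assigned to it alone, a difference of -0.88 (limma adjusted p = 0.127). A probe set shared by NCF1 and its near-identical copies NCF1B and NCF1C had 6.98 in SupB15 and 5.66 in both SupB15-MR arrays, a difference of -1.33, and signal from the copies cannot be told apart from that of NCF1. RAC2, the RAC GTPase of blood cells, had a difference of -0.65 (limma adjusted p = 0.124), and CYBC1, a chaperone needed for the CYBB and CYBA pair, had one of -0.95 (limma adjusted p = 0.0805). RAC1 fell by 1.29 (limma adjusted p = 0.0296) on its most intense probe set, and 2 others of the 4 assigned to it had differences of -1.13 and -1.77. The remaining one went the other way by a larger amount, from 3.55 in SupB15 to 8.26 and 7.98 in SupB15-MR (difference 4.57), so that the mean over all 4 was 0.09 and RAC1 has no single direction here. For DUOXA2, the maturation factor of DUOX2, the values were 4.88 in SupB15 and 5.66 in both SupB15-MR arrays. NOXO1 and NOXA1, the organiser and activator of NOX1, had differences of 1.14 (limma adjusted p = 0.0505) and 0.89 (limma adjusted p = 0.0850).

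Of 9 measured cytosolic partners and organisers, 2 rose, 1 fell and 6 did not pass, with a median difference of 0.72. The 1 that fell was RAC1, counted by its most intense probe set although its probe sets disagree, as given above. The 2 that rose were SH3PXD2A (1.52, with identical SupB15-MR values) and SH3PXD2B (1.27), scaffold proteins known to organise NOX1. Of 3 membrane partners and maturation factors (DUOXA2, CYBC1 and the proton channel HVCN1) none reached 2-fold in the mean of the SupB15-MR arrays, and the median was -0.93. CYBC1 was 2-fold lower in the first of them alone (-1.03). HVCN1 had 8.32 in SupB15 and 7.39 in both SupB15-MR arrays, a difference of -0.93. HVCN1 was called lower with each array centred on its median, and both HVCN1 and CYBC1 were with quantile normalization. Over all 17536 genes tested, 11.8% were called higher and 9.03% lower, and the median difference was 0.00.
Among 12 tested kinases and RAC regulators that start assembly, 2 rose and 1 fell, with a median of 0.07. DOCK2, a RAC activator of lymphocytes, had 3.95 in SupB15 and 8.40 and 8.11 in SupB15-MR. It rose by 4.31 (limma adjusted p = 0.0322), and its other probe set was 1.46 higher. VAV1, a RAC activator of blood cells, rose by 1.04 (limma adjusted p = 0.0491), a call that was lost with no filter (limma adjusted p = 0.0549), with the arrays centred on their medians (difference 0.85) and with quantile normalization (0.94). PRKCD, a protein kinase C that phosphorylates NCF1, fell by 1.30 (limma adjusted p = 0.00814). Its values were 6.52 in SupB15 and 5.21 and 5.24 in SupB15-MR. PRKCA, PRKCB and PRKCZ, also protein kinases C of this list, were not called. PRKCA had a difference of 1.41 (limma adjusted p = 0.105), with -1.52 to 2.20 on its other probe sets. PRKCA was called higher with the prior from differing probe sets. PRKCB had -0.26 on its most intense probe set but 0.28 to 4.25 on the others, and 4 of its 6 probe sets were 2-fold higher. PRKCZ had 0.13.

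**Figure D4:**
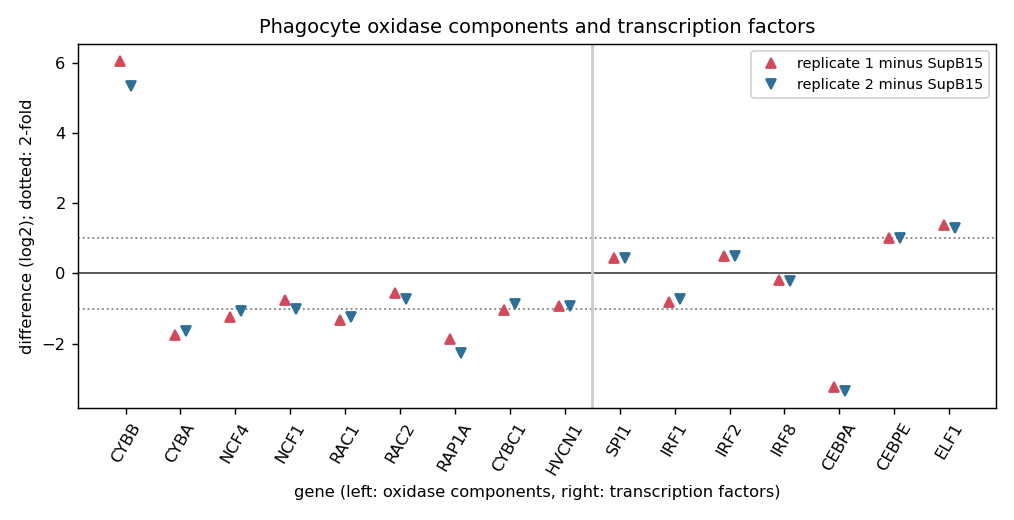
Difference between each SupB15-MR array and SupB15 (log2, vertical axis) for components of the phagocyte oxidase (left of the grey line) and transcription factors known to act on its genes (right), 1 probe set a gene, with dotted lines at 2-fold. CYBB stands at 6.07 and 5.35 while the 8 other components shown lie below 0 in both SupB15-MR arrays. Of these 8, CYBA and RAC1 alone were called on the probe set shown. Another probe set of RAC1 had a difference of 4.57, and the other probe sets of RAP1A had -0.01 to 0.16. Over all genes, 7974 of 19775 had a mean difference below 0.00.

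Of 7 transcription factors known to act on the phagocyte oxidase genes, 2 rose, 1 fell and 4 did not pass, with a median of 0.44. SPI1 (PU.1), the factor of the PU box shown above, had 6.15 in SupB15 and 6.60 in both SupB15-MR arrays, a difference of 0.44, which is under 2-fold. IRF8 had 8.43 in SupB15 and 8.24 and 8.21 in SupB15-MR, a difference of -0.20 (limma adjusted p = 0.0571). ELF1, an ETS factor of lymphocytes, rose by 1.33 (limma adjusted p = 0.0333), with 0.39 on its other probe set, and CEBPE, a factor of late granulocyte development, rose by 1.02 on a probe set with identical SupB15-MR values. The call of CEBPE was lost with the arrays centred on their medians (difference 0.83) and with quantile normalization (0.83). CEBPA had 7.35 in SupB15 and 4.11 and 3.99 in SupB15-MR and fell by 3.30 on the log2 scale (limma adjusted p = 0.0161).

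CYBB is best known from neutrophils and monocytes, so markers of those cells were read beside it. Of 13 measured markers 11 were tested, 1 was called higher (LYZ) and none lower. LYZ had 3.07 in SupB15, near background, and 4.29 and 4.27 in SupB15-MR. It was tested only because of its SupB15-MR values, its other probe set had 2.46 in all 3 arrays, and it was not tested with the filter at the 50th percentile. On the linear scale the values of the 13 markers summed to 314.1 in SupB15, and to 494.1 and 349.5 in SupB15-MR. CSF1R had the highest value of them in SupB15 and MPO in SupB15-MR, so these genes weigh most in the sums. S100A8 and FCGR3B were near background in all 3 arrays, and S100A9, AZU1 and FCN1 had identical values in all 3. MPO had 6.18 in SupB15 and 8.20 and 7.30 in SupB15-MR (difference 1.57, limma adjusted p = 0.272). CSF1R had 6.47 in SupB15 and 4.38 and 3.97 in SupB15-MR (difference -2.29, limma adjusted p = 0.0842). With the prior from differing probe sets MPO was called higher and CSF1R lower. Of 10 measured markers of B-cell precursors, 1 rose (MME), 2 fell (VPREB1 and IGLL1) and 7 did not pass. All 10 lay above 3.47 in every array, but they did not move alike. VPREB1 fell by 6.41, from 10.5 in SupB15 to 4.22 and 3.94 in SupB15-MR, and IGLL1 fell by 2.31. MME rose by 1.54, and RAG1, which was not called, had a difference of 2.03 (5.86 on its other probe set). CD79A stood at 10.3 in all 3 arrays, with a difference of -1.02 on its other probe set.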

How the data were processed

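RNA (2 µg) was labelled by the authors with NuGEN Ovation reagents for Affymetrix arrays, and the authors normalised and summarised the probes with RMA (apt-probeset-summarize; version not given in the sources used here). Deposited were log2 values of 54675 probe sets in 3 arrays, which carry no read depth; precision is limited by having so few arrays.

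Probe sets were named from the platform annotation, with symbols updated through gene IDs: 41091 had 1 gene, 1801 several and 11721 none, and 62 controls were set aside. Low values were removed following the methods (8626 probe sets whose 3 values did not exceed 3.47, the 20th percentile), which left 45987. The groups, taken from the labels, were compared with limma 3.58.1 in R 4.3.3, 2-sided, with Benjamini-Hochberg adjustment over all probe sets tested. Residual spread was set to 0 where SupB15-MR values were identical. P-values measure only the spread between the SupB15-MR arrays, which may be technical.

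Lists of partners, regulators and markers were described by counts and medians, 1 probe set a gene. Every member probe set was named. From each list up to 3 called genes a direction were named, otherwise the 2 with the largest difference, and NCF1, RAC2, CYBC1, DUOXA1, DUOXA2, SPI1 and IRF8 where measured. NOXO1, NOXA1, ARHGDIA, VAV2 and single markers were picked after their values were seen. The members and lists were chosen with earlier results of these data known. Alternatives changed the filter, scaling, test, variance prior and floor. The fit was also run on simulated data with a common spread for all probe sets, unlike the deposited values, so no conclusion is drawn from it. RefSeq promoter windows were searched for motifs on both strands.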

Additional observations from a re-analysis of the deposited data

How the results depend on the processing

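No paired analysis was possible because SupB15 has 1 array and shares fewer than 2 replicate numbers with SupB15-MR. Leaving out a SupB15-MR array leaves 1 against 1 and no test; each array's own values are given in the report. As reported, the members had 2 calls higher and 2 lower. The count called higher was 4 with the filter at the 50th percentile, 5 with quantile normalization, 6 with the variance prior from differing probe sets and 5 with only probe sets whose SupB15-MR values differ. The ANOVA of the methods, on 27694 probe sets whose SupB15-MR values differ, called 0 higher and 0 lower, among members, in the 7 pathway lists and over the whole array (6751 probe sets were 2-fold apart with an unadjusted p no higher than 0.05, 2 of them of the members, against 13052 and 8 with limma). With the prior from differing probe sets 7465 probe sets were called lower over the array in place of 4463, and in the 7 pathway lists 11 genes were called higher in place of 6 and 10 lower in place of 5. The lower count of these lists was 11 with each array centred on its median, 9 with quantile normalization and 10 with only differing probe sets. The cause was not tested. The number of member probe sets near background in all 3 arrays was 5, and 12 with the 50th percentile (5.22) as the floor. No called member changed direction. NOX5, which was not called, had -0.02 on its most intense probe set and 0.33 as the mean over both. Signal over background limits NOX1, NOX3, NOX4, NOX5, DUOX1 and DUOX2, each of which had at least 1 probe set near background in an array, as did 1 of CYBB.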

Other observations

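NADPH, the electron donor of these oxidases, is made by a small set of dehydrogenases. Of 13 measured genes of NADPH supply, 1 fell and 12 did not pass the test, with a median difference of -0.19. These counts read 1 probe set a gene. NNT, read at -0.20, had -3.72 to -0.74 on its other probe sets, and MTHFD1, read at -0.40, had 2.90 on its other one. ME3, a mitochondrial malic enzyme, had 7.06 in SupB15 and 5.45 and 5.36 in SupB15-MR and fell by 1.65 on the log2 scale (limma adjusted p = 0.0243), with -0.25 on its other probe set. With the prior from differing probe sets 3 were called lower and 1 higher. The further 2 lower were IDH1 (difference -1.78, with -0.83 and -1.99 on its other probe sets) and MTHFD2 (-1.85, but 1.17 on its other probe set), and the higher one was ALDH1L2 (1.05). Among 11 tested genes of other enzymes that make superoxide or hydrogen peroxide, none passed with limma at 2-fold (1 had an unadjusted p no higher than 0.05), while 2 did with the prior from differing probe sets. These were ERO1B, an oxidase of the endoplasmic reticulum (6.71 in SupB15 and 8.48 and 9.32 in SupB15-MR), and MAOA, a monoamine oxidase (5.09 in SupB15 and 3.67 and 3.82 in SupB15-MR). Of these genes, 4 were called lower with each array centred on its median (MAOA, MAOB, SMOX and XDH) and 1 with quantile normalization (MAOA). Of the aquaporins that pass hydrogen peroxide, AQP3 fell by 1.53 on the log2 scale (limma adjusted p = 0.0153) on its most intense probe set, from 6.09 in SupB15 to 4.59 and 4.54, while its other probe sets had differences from -0.71 to 0.83; AQP8 had 0.06 and AQP9 was near background.

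By the Euclidean distance of the 2 differences from SupB15, the genes most like CYBB (203923_s_at) were IRX3 (distance 0.23), REST (0.40) and GTF2A1 (0.42), the only 3 of 19774 other genes within 0.5. Those most like CYBA (203028_s_at) were MID1IP1, PDE4A and VPS13A, at distances of 0.01 to 0.02, with 969 genes within 0.5. Both likenesses rest on 2 differences that share 1 SupB15 array.

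Of 5 measured T-cell markers, 1 fell (CD3E, near background in both SupB15-MR arrays and not tested with the filter at the 50th percentile) and none rose. Of 7 stromal markers none passed with limma among the 6 tested. DCN (difference -1.10) and THY1 (-3.22) were 2-fold lower with an unadjusted limma p no higher than 0.05. Both were called lower with the prior from differing probe sets. The other probe sets of DCN had -0.93 to 0.12, and those of THY1 had -1.83 to -1.59. Of 5 markers of thyroid and epithelium 1 of the 4 tested rose (KRT8, by 1.18). KRT8 had 0.99 with the arrays centred on their medians, where the call was lost. EPCAM was near background in all 3 arrays, and TG and CDH1 had identical values in all 3.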
